A study of Drosophila melanogaster with 18 samples.

Results

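Dissected muscle carcasses were compared with whole bodies of third-instar (L3) Drosophila melanogaster larvae of a single genotype, mef2>NUAK550, in which the muscle driver mef2 expressed the kinase NUAK. The comparison rests on 6 RNA-seq libraries, 3 labelled NUAK550 muscle and 3 labelled NUAK550 whole, taken by their labels out of 18 libraries in all. The study also sequenced both preparations from mef2>lacZ larvae, the control genotype, and from a second NUAK overexpression line, mef2>NUAK548. Larvae of all groups carried the mef2 driver and were reared at 25 °C, and each library began with 2.0 ug of total RNA, per the labels' protocols. The labels name the genotype as NUAK overexpression, do not say what the number 550 stands for, and give neither the sex of the larvae nor the number pooled per library. Nor do they tell if replicate libraries are separate cultures, so every p-value measures only the spread between these libraries.

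The larval body wall muscle is built of multinucleate fibres whose sarcomeres hold actin-based thin filaments, myosin-based thick filaments and the Z-discs that anchor them. Each fibre receives glutamate at its neuromuscular junctions and is fixed through integrins to tendon cells of the epidermis. A carcass is what is left of a larva opened and cleared of its inner organs, so it keeps body wall muscle with the epidermis and cuticle over it, while a whole larva also holds the gut, fat body, salivary glands, imaginal discs and brain. NUAK belongs to the AMPK-related kinases, which are activated by the kinase Lkb1, and in Drosophila muscle it is known to act with the co-chaperone Starvin, the product of stv, in autophagic protein turnover.

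The muscle libraries held 16642042 to 19771226 counted reads, and the whole libraries 14931020 to 22341807. Levels are CPM, the counts scaled to library size after TMM (trimmed mean of M values) normalization, which corrects for a few abundant genes taking up reads. Over all genes these CPM summed to 1.14e+06 to 1.27e+06 in a muscle library and to 811111 to 845287 in a whole library. Summed CPM of the lists below are therefore not shares of a library. The 10 genes with most counts took up 15.4% to 19.6% of a muscle library and 11.2% to 13.5% of a whole library. Correlations of log2 CPM ran from 0.959 to 0.973 between muscle libraries, from 0.975 to 0.988 between whole libraries and from 0.768 to 0.801 between the preparations.

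Of 10279 genes tested with edgeR's quasi-likelihood test, 2828 (27.5%) were higher in NUAK550 muscle than in NUAK550 whole larvae and 3087 (30.0%) were lower, at an adjusted p below 0.05. Together 5915 genes (57.5%) were called, of which 1243 (12.1% of those tested) were higher by a factor of 2 or more and 1919 (18.7%) lower by as much. The 3 muscle and 3 whole libraries did not overlap for 67.6% of the tested genes. The call held in each of the 6 fits that left out a library for 4185 genes (40.7%). The median log2 fold change of muscle over whole (log2FC below) was -0.01 over all genes. With libraries scaled to their totals in place of TMM that median was -0.56, and the calls were 1094 higher and 5597 lower, 16.4% higher against 47.8% with TMM. Changes are therefore relative to the median gene, and the counts of the gene lists below are read against 27.5% higher and 30.0% lower over all genes. In bulk RNA, a larger share of cells of a type and more RNA of a gene per cell cannot be told apart.

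**Figure D1:**
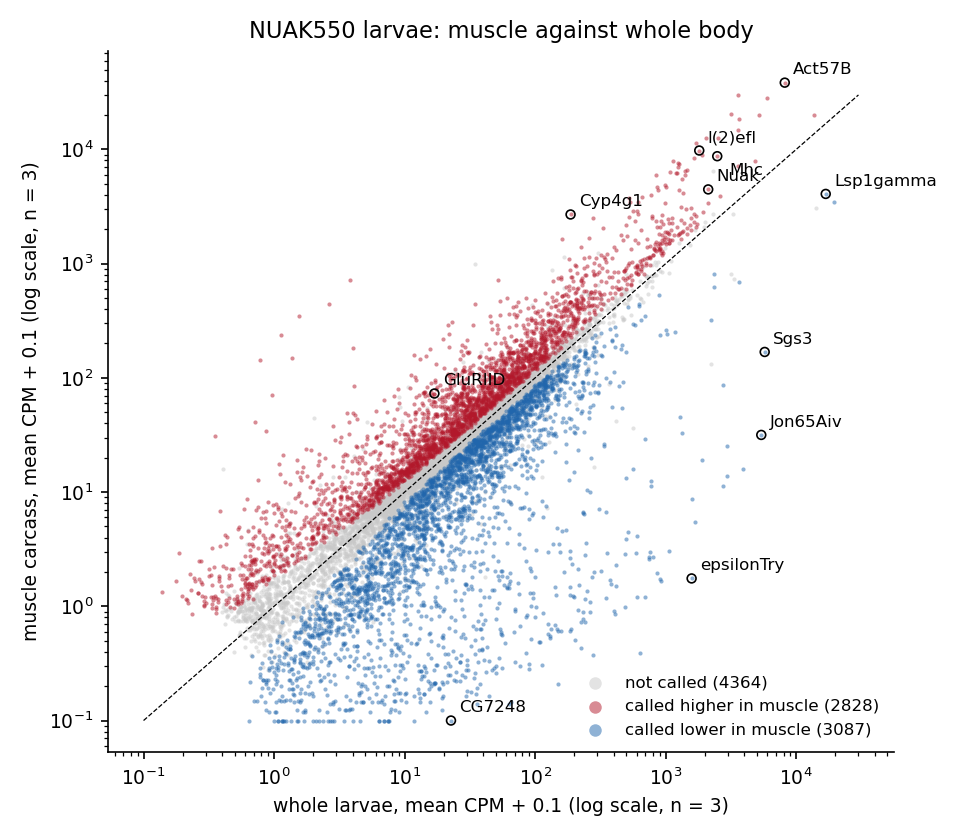
Mean level of each tested gene in NUAK550 muscle (vertical axis) against NUAK550 whole larvae (horizontal axis), in CPM plus 0.1 on log scales, n = 3 libraries each, coloured by call. The 3087 genes called lower reach much farther from the dashed line of equal levels than the 2828 called higher, and CG7248 had no counts in muscle.

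The contractile apparatus was higher in muscle nearly throughout. Together the thin filament, thick filament and Z-disc lists summed to 197779, 140042 and 189415 CPM in the NUAK550 muscle libraries, against 37504, 32466 and 34340.2 CPM in the NUAK550 whole libraries. Replicate 2 was the lowest of the muscle libraries and still lay far above every whole library. As shares of the counts, the lists held 15.6%, 12.3% and 15.3% of the muscle libraries and 4.44%, 3.94% and 4.23% of the whole libraries. Of 32 tested members, 28 were higher in muscle, 1 was lower and 3 were not called, with a median log2FC of 2.23.

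Of 16 thin filament genes, 14 were tested, 12 of them higher and 1 lower, with a median log2FC of 2.41. Act57B (2R 20944021 to 20946431), a major larval muscle actin, had 46529.7, 28441 and 40319 CPM in muscle, against 8939.8, 7562 and 8023 CPM in whole larvae. Its log2FC was 2.23 ± 0.22 (SE; adjusted p = 0.000466), and the groups were far apart. The other larval muscle actin, Act87E, had a log2FC of 2.34 ± 0.20 (SE), and the troponin T gene up and the tropomyosin gene Tm1 had log2FC of 2.65 and 2.75. The troponin C gene TpnC73F had 4543, 4618 and 4793 CPM in muscle, against 802, 889 and 880.1 CPM in whole larvae. TpnC41C had few reads, 0.908, 2.93 and 2.45 CPM in muscle, against 0.226, 0.231 and 0.29 CPM in whole larvae, and was also higher, with a log2FC of 3.03. The flight muscle actin Act88F and the flight muscle troponin C gene TpnC4 were below the filter in both preparations, and Act79B, an actin of adult leg muscle, was not called (0.681, 0.345 and 0.519 CPM in muscle and 1.08, 0.925 and 0.653 CPM in whole larvae). Chd64, a calponin-related gene, was the member that was lower, at 179.8 ± 25.8 CPM in muscle and 454 ± 5.92 CPM in whole larvae (SD, n = 3 each).

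All 8 tested thick filament genes were higher in muscle, with a median log2FC of 2.02, and each kept its call when any library was left out. Mhc, the muscle myosin heavy chain, had 11296, 5248 and 9626 CPM in muscle, against 2515, 2046 and 2889.8 CPM in whole larvae. Its log2FC of 1.81 ± 0.31 (SE; adjusted p = 0.00372) was smaller than those of its light chains Mlc1 (2.84) and Mlc2 (2.68), although the 3 values were not tested against each other. Paramyosin (Prm) had a log2FC of 2.22, bt, which encodes the titin-like projectin, 1.78, and Strn-Mlck, a myosin light chain kinase, 0.97. The flightin gene fln, a flight muscle thick filament gene, was below the filter, and 61.6% of its counted length overlaps an antisense RNA.

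Among 11 tested genes of the Z-disc and titin-like list, 9 were higher and none lower, with a median log2FC of 1.79. Zasp66, a Z-disc scaffold gene, had 6404, 8835 and 7511 CPM in muscle, against 1217, 1242 and 1284 CPM in whole larvae, and the groups did not overlap. The muscle LIM protein genes Mlp60A and Mlp84B, the titin-related gene sls and the alpha-actinin gene Actn had log2FC of 2.86, 2.71, 2.13 and 1.79. The filamin gene cher was higher by 1.67 ± 0.28 (SE). The second filamin gene jbug was not called, at 312, 391 and 293 CPM in muscle and 215, 251 and 325 CPM in whole larvae.

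Genes of calcium handling and membrane excitability were mixed: of 20 tested, 13 were higher and 3 lower, with a median log2FC of 0.80. That median came to 0.26 with libraries scaled to their totals. SERCA, the sarcoplasmic reticulum calcium pump, had 3184, 1781 and 2896 CPM in muscle, against 702, 703 and 952 CPM in whole larvae (log2FC 1.74 ± 0.26, SE). CaMKII, a calcium-dependent kinase, had a log2FC of 1.16. The ryanodine receptor gene RyR, the calcium release channel, had 148, 58.1 and 108 CPM in muscle, against 32.7, 25.0 and 61.3 CPM in whole larvae. Its lowest muscle library lay just below the highest whole library. Its log2FC of 1.40 ± 0.45 (SE; adjusted p = 0.0373) was not called without muscle replicate 1 or 3 (adjusted p = 0.0916 and 0.0855) or without whole replicate 1 or 2 (0.109 and 0.101). RyR, SclB and the channel genes in the next sentences were picked from their list after their values were seen. Channel genes differed among themselves. Ca-alpha1D, an L-type calcium channel, was higher by 1.66, and the potassium channel gene Shab by 2.23, on the log2 scale. The potassium channel genes Shal and Irk2 were lower, with log2FC of -0.80 and -2.12. Irk2 was not called without muscle replicate 3 or without whole replicate 1, 2 or 3 (adjusted p = 0.095, 0.0771, 0.0702 and 0.0604), and its log2FC without muscle replicate 1 was -3.32. SclB, a sarcolamban gene, shares 88.5% of its counted length with SclA, so its log2FC of 2.62 cannot be assigned to SclB alone.

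The list for the postsynaptic side of the neuromuscular junction split into receptor subunits that were higher and several other genes that were lower. Not all of its members act only in muscle. All 5 glutamate receptor subunits were higher, with summed levels of 416, 385 and 404 CPM in muscle, against 87.8, 84.8 and 90.3 CPM in whole larvae. Their log2FC ran from 1.94 (GluRIIA) to 2.44 (GluRIIC). The essential subunit GluRIID (3R 20648595 to 20652450) had 76.8, 72.5 and 69.3 CPM in muscle, against 16.8, 15.7 and 18.01 CPM in whole larvae (log2FC 2.11 ± 0.09, SE; adjusted p = 3.71e-05). The alternative subunits GluRIIA and GluRIIB had mean levels of 84.9 ± 6.544 and 31.5 ± 5.66 CPM in muscle, against 22.2 ± 5.21 and 6.51 ± 1.09 CPM in whole larvae (SD, n = 3 each). The scaffold gene dlg1 and the adhesion gene Nlg1 had log2FC of 0.97 and 1.54. Lower were the Wnt receptor gene fz2 (-1.17), the BMP receptor gene wit (-1.06), the vesicle gene Syt4 (-1.16), Nlg2 (-1.85) and scrib (-0.39). Whole larvae also hold the brain and imaginal discs, and which cells gave the reads of these genes was not tested. The call of scrib, a polarity gene, was lost without whole replicate 1 or 3 (adjusted p = 0.0505 and 0.0549). Of all 16 members, 8 were higher and 5 lower, and the median log2FC of 0.45 turned to -0.11 with libraries scaled to their totals.

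Genes that attach the muscle to the body wall were mostly higher. Of 15 integrin attachment genes, 9 were higher and 1 lower, with a median log2FC of 0.81, which came to 0.25 with libraries scaled to their totals. Pax, the paxillin gene, had 1271, 965 and 1337 CPM in muscle, against 258, 307 and 385 CPM in whole larvae. The muscle alpha integrin gene if had a log2FC of 1.64 ± 0.20 (SE) and its beta partner mys 0.76 ± 0.13 (SE), whereas the alpha integrin gene mew, which acts on the tendon side, was not called (65.5 ± 7.14 CPM in muscle and 72.6 ± 1.28 CPM in whole larvae). The 3 genes of the Ilk complex, Ilk, stck and parvin, had log2FC of 0.95, 1.42 and 1.18. The talin gene rhea was not called (473, 297 and 452 CPM in muscle and 356, 353 and 380.1 CPM in whole larvae), although it was without muscle replicate 2 (adjusted p = 0.0202). The alpha integrin gene scb was lower, with a log2FC of -0.99.

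Among 8 tendon cell genes 4 were higher and none lower, with alphaTub85E (1.94) and the tendon regulator sr (0.98) among them. Their median log2FC of 0.63 came to 0.08 with libraries scaled to their totals. In the dystrophin complex, 3 of 8 genes were higher and 2 lower. The dystrobrevin gene Dyb was higher (181, 119 and 179 CPM in muscle, against 55.7, 56.8 and 49.4 CPM in whole larvae), while the dystrophin gene Dys was lower (116, 90.0 and 104 CPM in muscle, against 177, 161 and 175 CPM in whole larvae). Of 14 basement membrane genes 10 were not called. The nidogen gene Ndg was higher, with a log2FC of 1.90 ± 0.41 (SE), and the perlecan gene trol was lower, with -1.92 ± 0.31 (SE). The type IV collagen genes Col4a1 and vkg had log2FC of 0.03 and 0.07 and were not called.

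Transcription factors of the muscle lineage did not move as a block. Of 16 tested, 4 were higher and 6 lower, with a median log2FC of -0.19. Mef2, the muscle differentiation factor whose regulatory sequence gave the driver its name, had 145, 233 and 205 CPM in muscle, against 77.6, 72.5 and 93.5 CPM in whole larvae (log2FC 1.26 ± 0.20, SE; adjusted p = 0.00293). The RNA-binding regulator how and the identity factors slou and nau were the other members that were higher, with log2FC of 1.21, 2.12 and 1.53. The factor genes ap, caup, ara and Kr, all of which also act outside muscle, were lower, with log2FC of -1.99, -1.01, -0.79 and -2.61. The genes slou, nau, ap, caup, ara and Kr were picked after their values were seen. The ara call was lost without muscle replicate 3 or whole replicate 3 (adjusted p = 0.0535 and 0.0512), and without muscle replicate 1 the log2FC of Kr was -3.26.

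**Figure D2:**
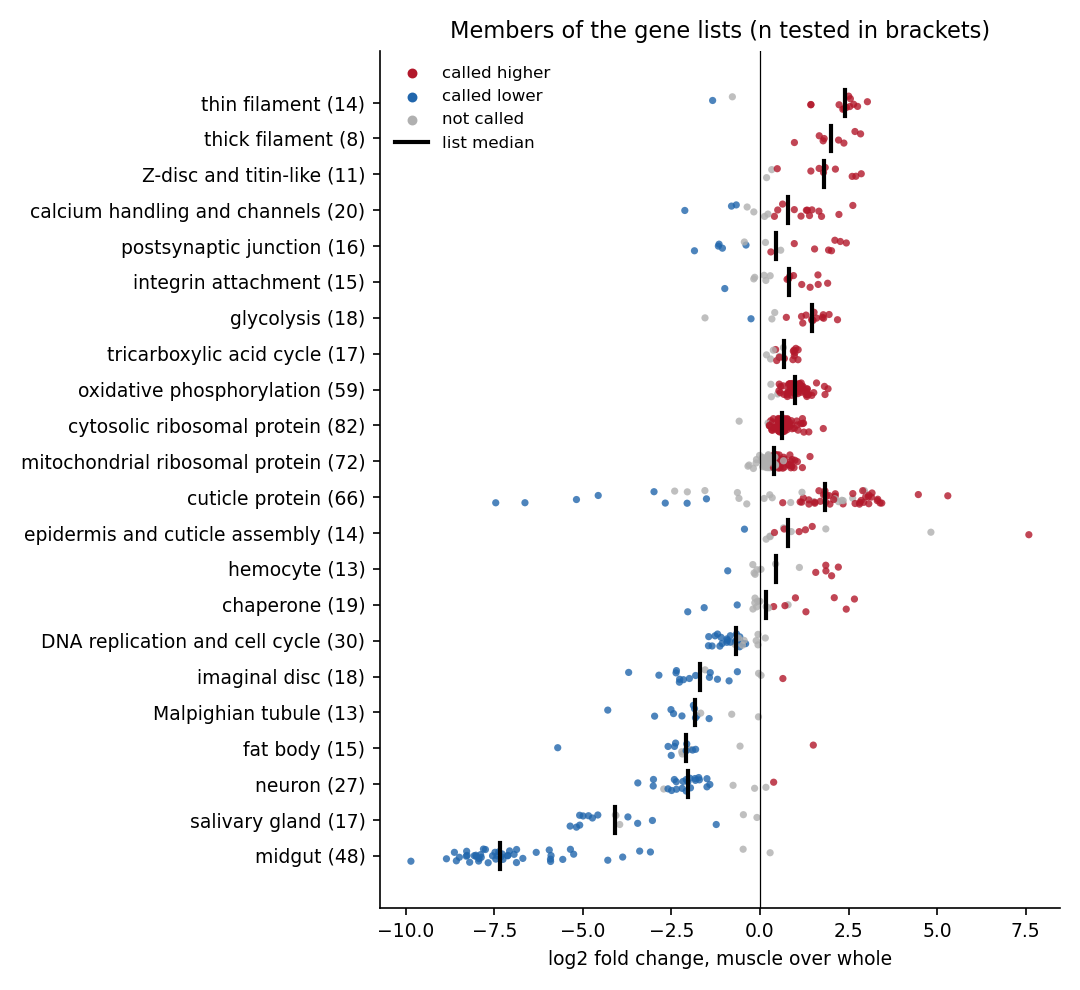
Log2 fold change of NUAK550 muscle over NUAK550 whole larvae for each tested member of 22 gene lists, coloured by call, with the list median as a black bar. The medians run from 2.41 for thin filament genes to -7.34 for midgut genes.

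Genes of energy metabolism were mostly higher in muscle. Of 18 glycolysis genes 14 were higher and 1 lower, with a median log2FC of 1.46. Argk1, the arginine kinase that buffers ATP in muscle, had 8053, 4535 and 7336 CPM in muscle, against 1346, 1557 and 1467 CPM in whole larvae. The enolase gene Eno and the aldolase gene Ald1 had log2FC of 1.79 ± 0.18 and 1.499 ± 0.20 (SE). Of 17 genes of the tricarboxylic acid cycle 12 were higher and none lower (median log2FC 0.69), and of 59 tested nuclear genes of oxidative phosphorylation 56 were higher and none lower (median 0.99). With libraries scaled to their totals those medians were 0.13 and 0.44. The ATP synthase gene ATPsynbeta had 2169.6, 1328 and 1884 CPM in muscle, against 874, 826 and 1091 CPM in whole larvae, and blw, another ATP synthase subunit gene, was not called (1248, 659 and 1029 CPM in muscle and 702, 672 and 999 CPM in whole larvae).

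The 13 protein genes of the mitochondrial genome, a group taken up after their values were seen, were all higher, with log2FC from 2.01 to 3.09. The mitochondrial genome held 6.24% to 7.55% of the counts in muscle, against 1.96% to 2.34% in whole larvae. The median of its genes, 2.30, stood beside 0.99 for the nuclear genes of the same complexes. That difference was not tested.

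Of 82 tested cytosolic ribosomal protein genes 78 were higher in muscle and none lower, with a median log2FC of 0.62, which came to 0.07 with libraries scaled to their totals. RpS3A had 3006, 3129.9 and 3052 CPM in muscle, against 1591, 1629 and 1468 CPM in whole larvae. Of 72 mitochondrial ribosomal protein genes 33 were higher and none lower, and their median log2FC of 0.38 turned to -0.16 under that scaling.

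Nuak (3R 10264306 to 10308467), the overexpressed gene, had 4876, 3779.7 and 4743 CPM in NUAK550 muscle, against 2151, 2048 and 2154 CPM in NUAK550 whole larvae. The muscle libraries were all higher, with a log2FC of 1.08 ± 0.13 (SE; adjusted p = 0.00106). The counts do not tell transgene from endogenous transcripts. Of the 13 genes of the NUAK and LKB1 list 6 were higher and 1 lower, and their median log2FC of 0.36 turned to -0.18 with libraries scaled to their totals. Lkb1, which phosphorylates these kinases, was not called (27.2, 27.2 and 27.8 CPM in muscle and 25.3, 21.2 and 22.8 CPM in whole larvae), nor was AMPKalpha (log2FC -0.03 ± 0.11, SE). The myosin phosphatase subunit gene Mbs, whose mammalian relative is a substrate of NUAK kinases, was higher by 0.89 ± 0.12 (SE). The salt-inducible kinase gene Sik2 was the member that was lower, with a log2FC of -1.48.

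Chaperone genes moved in both directions. l(2)efl (2R 23684651 to 23685543), a small heat shock protein gene of the alpha-crystallin family, had 9334, 10033 and 9979.7 CPM in muscle, against 1894, 1841 and 1690.1 CPM in whole larvae. Its log2FC was 2.44 ± 0.11 (SE; adjusted p = 3.98e-05), and the groups did not overlap. Hsc70-4, the main constitutive Hsp70, had a log2FC of 1.00 ± 0.11 (SE), and stv, a muscle co-chaperone of the BAG family picked after its values were seen, 1.30 ± 0.16 (SE). Neither Hsp83, the Hsp90 gene, nor Hsc70-3, the endoplasmic reticulum Hsp70, was called (log2FC -0.07 ± 0.17 and -0.09 ± 0.10, SE). The heat-inducible small chaperone gene Hsp23 was not called either, with 294, 1060.2 and 567 CPM in muscle and 342, 638 and 1147 CPM in whole larvae, groups that overlapped. In all, 7 of 19 tested members were higher and 3 lower.

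The carcass also held the body wall around the muscle. Of 122 cuticle protein genes 66 were tested, of which 40 were higher and 8 lower, with a median log2FC of 1.85. Lcp3, a larval cuticle protein gene, had 36047, 18513 and 34696 CPM in muscle, against 5264, 4052 and 1392 CPM in whole larvae. Lcp1 had a log2FC of 1.95 ± 0.18 (SE), and Cpr49Ac was not called (2142, 11872 and 5510.4 CPM in muscle and 1206, 1966 and 3751 CPM in whole larvae), except without muscle replicate 1 (adjusted p = 0.0309). The summed cuticle list came to 96467, 68394 and 94150.4 CPM in muscle, against 20821, 18130.3 and 14487 CPM in whole larvae. Of 14 tested genes of epidermis and cuticle assembly 6 were higher and 1 lower, among them the epidermal factor grh (0.68) and the chitin synthase gene kkv (1.11), both picked after their values were seen. The kkv call was lost without muscle replicate 3 or without whole replicate 2 or 3 (adjusted p = 0.0515, 0.0625 and 0.0622).

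Oenocyte genes, from the hydrocarbon-producing cells under the cuticle, split. Cyp4g1 (X 467057 to 469335), the last enzyme of hydrocarbon synthesis, had 2759, 2579 and 2745 CPM in muscle, against 206, 176 and 178 CPM in whole larvae (log2FC 3.85 ± 0.12, SE; adjusted p = 2.43e-05). The fatty acid synthase genes FASN3 and FASN2 had log2FC of 3.34 and 2.95. FASN1, the fat body synthase, which is not in the oenocyte list, was lower, with -2.38. FASN1 was not called without muscle replicate 2 or 3 or without whole replicate 3 (adjusted p = 0.0593, 0.0779 and 0.0564), the last with a log2FC of -1.58. The other members of the oenocyte list that were called, svp and spz5, were lower (-1.16 and -1.08). The list's median log2FC of 0.27 turned to -0.28 with libraries scaled to their totals.

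Hemocyte genes were in part higher. He, eater, NimC1 and Sr-CI, surface receptors of blood cells, had log2FC of 2.21, 1.86, 2.02 and 1.86, and the crystal cell gene PPO1 1.57. The GATA factor gene srp, active in hemocytes and fat body, was lower (-0.91). Of 13 members 5 were higher, 1 lower and 7 not called, and the median log2FC of 0.44 turned to -0.14 under that scaling. Summed levels were 2274, 992 and 1569 CPM in muscle and 1078, 809 and 829 CPM in whole larvae, with replicate 1 the highest and replicate 2 the lowest of the muscle libraries. Of 8 tested genes of nephrocytes and heart 4 were higher, 1 lower (Ork1, a potassium channel gene, log2FC -1.86) and 3 not called, and the median log2FC of 0.35 turned to -0.20 with libraries scaled to their totals. The nephrocyte genes Cubn and Amnionless, whose products form an uptake receptor, had log2FC of 1.11 and 2.00, and the heart and nephrocyte factor Hand 1.90. Cubn was not called without whole replicate 1, 2 or 3 (adjusted p = 0.0981, 0.0819 and 0.0994). Of 10 tested trachea genes 3 were higher and 3 lower, shares close to those over all genes.

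Genes of inner organs had the lowest log2FC, those of the midgut above all. The midgut list, mainly digestive proteases and other gut enzymes, summed to 108, 147 and 194 CPM in muscle, against 36250.2, 27499.8 and 23626 CPM in whole larvae. Of its 48 tested members 46 were lower and none higher, with a median log2FC of -7.34, and all 46 kept the call when any library was left out. Jon65Aiv, a serine protease gene, had 21.7, 21.3 and 51.6 CPM in muscle, against 7184, 4849 and 4169 CPM in whole larvae (log2FC -7.42 ± 0.53, SE; adjusted p = 0.000166). The trypsin gene epsilonTry had 0.908, 3.16 and 0.89 CPM in muscle, against 2319.7, 1075 and 1347 CPM in whole larvae.

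Fat body genes were lower too, with levels that stayed measurable in muscle. Of 15 members 10 were lower and 1 higher, with a median log2FC of -2.09, and they summed to 22949, 8816 and 10656 CPM in muscle, against 73306, 60612 and 59518 CPM in whole larvae. The storage protein gene Lsp1gamma had 6981, 2146 and 3107 CPM in muscle, against 24658, 14606 and 11246 CPM in whole larvae, with log2FC -2.05 ± 0.52 (SE; adjusted p = 0.0165). Without muscle replicate 3 that adjusted p was 0.0594. The lipoprotein gene apolpp and the lipid droplet gene Lsd-1 had log2FC of -2.41 and -1.82, and without muscle replicate 1 those of Lsp1gamma and apolpp were -2.68 and -3.32. Muscle replicate 1 carried more fat body RNA than the other muscle libraries, and Lsp1alpha in it (1947, 53.4 and 194 CPM in muscle) exceeded 2 of the whole libraries (1748, 7949 and 337 CPM in whole larvae). It was not called, except without that library (log2FC -4.76, adjusted p = 0.0471). Gbs-76A, a glycogen targeting subunit gene, was the member that was higher, with a log2FC of 1.51. Of 13 tested Malpighian tubule genes 10 were lower and none higher, with the water channel gene Drip at a log2FC of -2.98.

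Of 17 tested salivary gland genes 12 were lower and none higher, and 8 of them kept the call when any library was left out. The 7 glue genes, secreted to fix the pupa to its surface, summed to 52.2, 48.0 and 1399 CPM in muscle, against 13284, 15221 and 11470.5 CPM in whole larvae. Sgs3 had 17.9, 16.8 and 471 CPM in muscle, against 6106, 6016 and 5089 CPM in whole larvae. Muscle replicate 3 was far above the other muscle libraries and far below every whole library. Of the 7 glue genes 5 were called lower, of which 1, Sgs5bis, kept the call in every fit leaving out a library. The call of Sgs3 (log2FC -5.09 ± 1.49, SE; adjusted p = 0.0268) did not hold without whole replicate 1, 2 or 3 (adjusted p = 0.0585, 0.0588 and 0.052). Sgs5 (adjusted p = 0.0506 and 0.0557) and Sgs4 (0.0575 and 0.0631) were not called without whole replicate 1 or 2. Without muscle replicate 3 the log2FC of Sgs3 was -8.37 (adjusted p = 0.00016). The gland factor genes fkh and sage, picked after their values were seen, had log2FC of -3.04 and -3.45, that of sage being -4.25 without muscle replicate 3.

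Neuronal and imaginal disc genes were mostly lower as well. Of 27 neuronal genes 22 were lower and 1 higher, with a median log2FC of -2.03. The pan-neuronal gene elav had 31.8, 17.5 and 22.03 CPM in muscle, against 78.1, 73.3 and 84.99 CPM in whole larvae, and the synaptotagmin gene Syt1 66.7, 28.2 and 30.2 CPM in muscle, against 162, 128 and 119 CPM in whole larvae. The presynaptic gene unc-13 and the vesicle chaperone gene Csp were not called (log2FC 0.17 ± 0.07 and -0.15 ± 0.08, SE). Of 11 glial genes 3 were higher and 4 lower, shares close to those over all genes. Of 18 imaginal disc genes 14 were lower and 1 higher, with the wing gene ap at 10.9, 14.7 and 9.27 CPM in muscle, against 48.9, 45.1 and 45.4 CPM in whole larvae. Of 30 genes of DNA replication and the cell cycle 22 were lower and none higher, with a median log2FC of -0.69. The replication clamp gene PCNA had 26.9, 27.3 and 24.8 CPM in muscle, against 47.0, 40.3 and 39.97 CPM in whole larvae (log2FC -0.69 ± 0.10, SE), and the ribonucleotide reductase genes RnrL and RnrS had log2FC of -0.63 and -0.57.

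**Figure D3:**
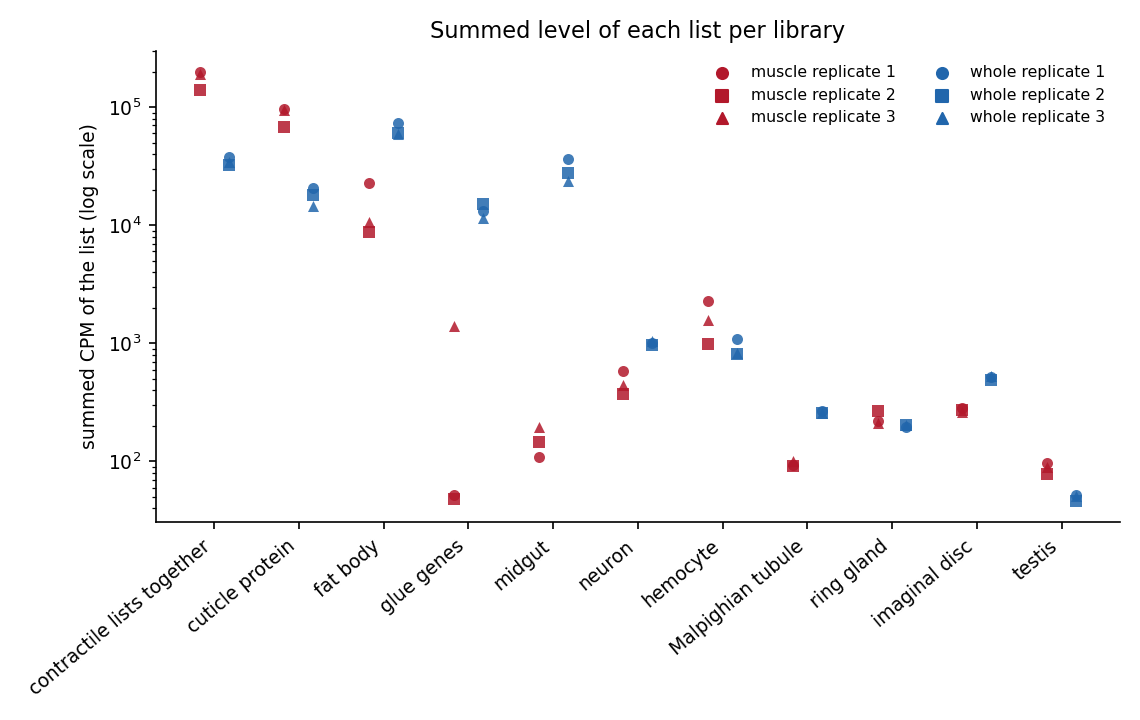
Summed CPM of marker lists in each of the 3 NUAK550 muscle libraries (red) and the 3 NUAK550 whole libraries (blue), on a log scale, by replicate symbol. Muscle replicate 3 holds 1399 CPM of glue genes, far above the other muscle libraries, and muscle replicate 1 the most fat body, neuronal and hemocyte transcripts.

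The muscle libraries also differed from each other in other transcripts. Ring gland genes were highest in muscle replicate 2, where the ecdysone synthesis gene spok had 1.06, 9.26 and 0.0742 CPM in muscle, against 12, 11.7 and 13.3 CPM in whole larvae. It was not called (adjusted p = 0.191), except without muscle replicate 2 (log2FC -4.44, adjusted p = 0.00392). The tanning genes ple, a tyrosine hydroxylase, and e, which conjugates dopamine, varied widely among the muscle libraries. For ple the levels were 9.99, 709.9 and 2232 CPM in muscle, against 14.55, 21.1 and 68.2 CPM in whole larvae, and it was not called (adjusted p = 0.0503), except without muscle replicate 1 (adjusted p = 0.00465). The gene e had 2.87, 278 and 1874 CPM in muscle, against 2.49, 3.01 and 5.55 CPM in whole larvae, with a log2FC of 7.59 ± 2.11 (SE; adjusted p = 0.0226) that was not called without whole replicate 1, 2 or 3 (adjusted p = 0.0782, 0.079 and 0.0645) and was 5.24 without muscle replicate 3. What part such differences between libraries had in other results was not tested.

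**Figure D4:**
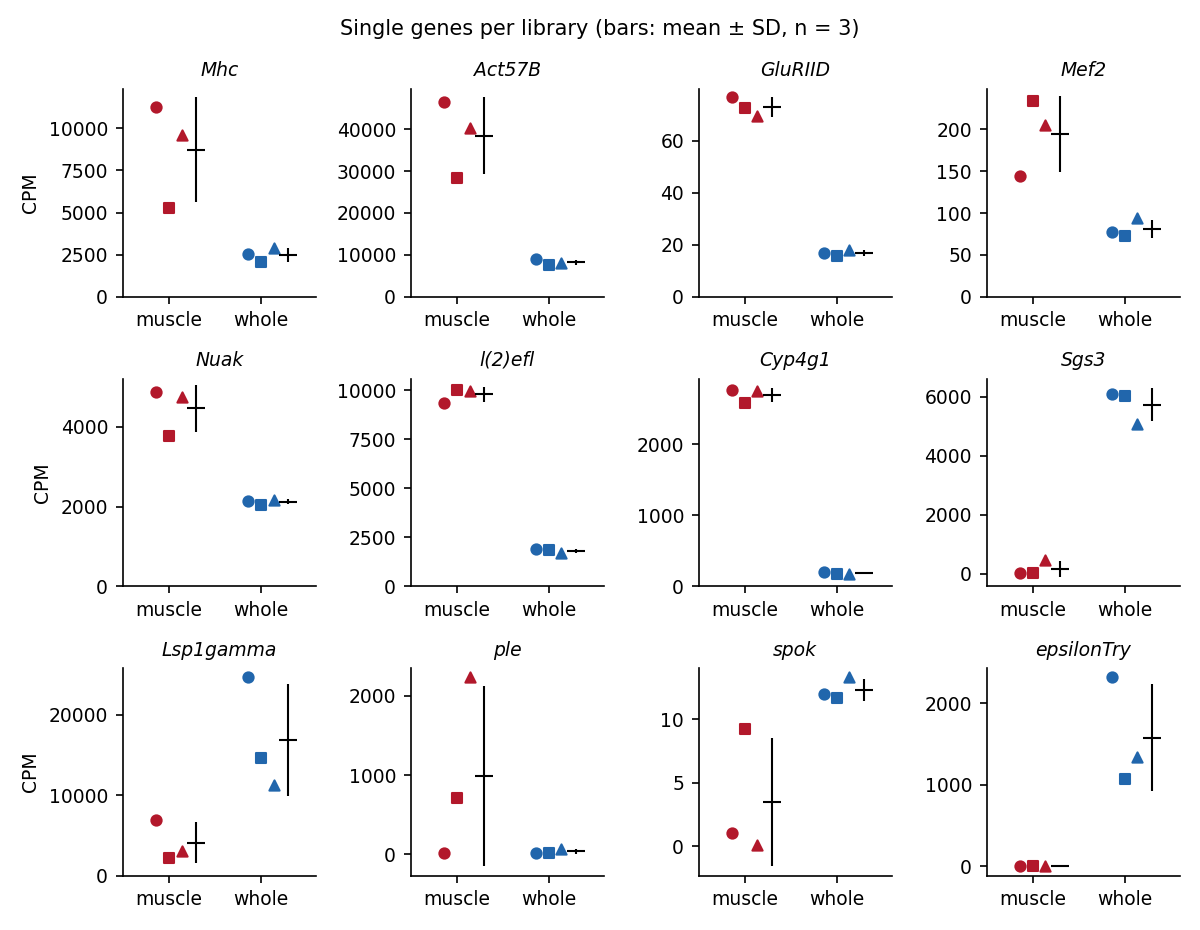
CPM of 12 genes in each library of NUAK550 muscle (left, red) and NUAK550 whole larvae (right, blue), with mean ± SD (n = 3) beside the points. Mhc, Act57B, Cyp4g1 and l(2)efl lie apart in the 2 preparations, while ple and spok spread widely within muscle.

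Ranked by log2FC, the 12 highest genes that were called in every fit leaving out a library and averaged at least 10 CPM in muscle were all outside the contractile lists. CG14664 (6.78), lncRNA:CR33948 (6.72), lectin-22C (4.41), CG15711 (4.30) and CG8534 (4.22) led them, the last sharing 70.4% of its counted length with an antisense RNA. CG14664 had 10.5, 224 and 216 CPM in muscle, against 0.283, 0.0925 and 3.41 CPM in whole larvae, and without whole replicate 3 its log2FC was 9.65. That of lncRNA:CR33948 was 9.05 without whole replicate 3 and 5.73 without muscle replicate 3. The list went on with CG30334, CG15358, Cyp4g1, the cuticle gene snsl, CG9458, CG17560 and CG15531, with log2FC from 4.17 down to 3.76.

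At the other end stood genes with almost no counts in muscle. CG7248 (3L 11954083 to 11956780) and AANATL6 had no counts in the 3 muscle libraries and 1475 and 735 counts in the 3 whole libraries, which makes them at least 324-fold and 162-fold lower, taking 3 counts over the group as the floor. LManIII, Muc26B and CG11470 each had 2 counts in muscle and Npc2c had 1. For LManIII the ratio of whole over muscle was 1462 (95% counting interval 405 to 12078), which covers counting error only. The lysosomal mannosidase genes LManVI and LManV, CG6295, CG6283, epsilonTry and CG3819 completed the list, with log2FC from -11.13 to -9.29. LManVI had 0.53, 0.115 and 0.223 CPM in muscle, against 394, 751 and 755 CPM in whole larvae. Without muscle replicate 1 its log2FC was -11.87, and without muscle replicate 2 that of epsilonTry was -10.77, against -9.86 with all libraries.

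Per length, the 10 most abundant transcripts of muscle were Lcp3, mt:tRNA:Leu-TAG, Lcp4, Act57B, Lcp1, mt:CoIII, mt:CoI, CG42500, l(2)efl and CG34227. Lcp3 averaged 49077 ± 14268 TPM, a share of transcripts corrected for gene length, in muscle and 9629 ± 5072 TPM in whole larvae (SD, n = 3 each), and l(2)efl 16088 ± 1382 TPM in muscle and 4888 ± 56.1 TPM in whole larvae. In whole larvae the list was led by Sgs7, Lsp1gamma, Jon65Aiv, Fbp1 and eEF1alpha1, and also held Sgs3, mt:tRNA:Leu-TAG, Lsp1beta, Lcp1 and Lcp3. Division by gene length raises the rank of a very short gene such as mt:tRNA:Leu-TAG. Which transcripts gave the reads counted for it was not tested, so its rank is no measure of the tRNA. Fbp1, a fat body storage protein receptor, had 2231, 4195 and 3945 CPM in muscle, against 16868, 9816 and 32230.3 CPM in whole larvae.

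Transcripts linked to males were at low levels or nearly absent in both preparations. The dosage compensation RNA gene lncRNA:roX1, expressed in males, had 56.7, 61.9 and 56.4 CPM in muscle, against 25.9, 23.4 and 21.6 CPM in whole larvae (log2FC 1.31 ± 0.10, SE), and lncRNA:roX2 had 2 counts in the 3 muscle libraries and none in the 3 whole libraries. The 41 testis genes summed to 97.9, 77.8 and 89.2 CPM in muscle, against 51.6, 46.6 and 51.1 CPM in whole larvae, mostly from bol (66.0, 48.3 and 60.8 CPM in muscle, against 27.3, 23.2 and 25.4 CPM in whole larvae). Which cells gave the bol reads was not tested, so the sum in muscle is no measure of male RNA. Of the 15 testis genes that passed the filter, 4 were higher and 1 lower. None of the 9 Y-linked genes passed it, and together they had 5 counts in the muscle and 6 in the whole libraries.

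Whether the tissue difference in NUAK550 larvae differed from that in lacZ larvae was tested as an interaction over 12 libraries, with no library shared between the NUAK550 and the lacZ difference. Of 12194 genes tested, 1123 (9.21%) had a higher and 549 (4.50%) a lower log2FC in NUAK550 larvae than in lacZ larvae, at an adjusted p below 0.05. The lower count was not stable: it was 221, 163 and 147 without NUAK550 muscle replicate 1, 2 or 3, and 325 and 341 without NUAK550 whole replicate 1 or 2. Without lacZ muscle replicate 1, 2 or 3 it was 215, 235 and 168, and with genes kept at 1 CPM or more in 3 libraries 271. In the 12-library fit 4183 genes were called in the same direction in both genotypes, 74.5% of the genes called in NUAK550 and 55.2% of those called in lacZ. Another 163 were called in opposite directions. Across genes, the 2 log2FC had a Pearson r of 0.45, a description over genes that are not independent. With all 18 libraries in the fit, 226 genes were called. CPM below are scaled over the 12 libraries.

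Testis genes made up part of the higher group. Of 41 testis genes 29 had a higher log2FC in NUAK550 and none a lower. However, 26 of the 41 did not pass the filter in the 6 NUAK550 libraries and entered only with the lacZ libraries added. For those genes the direction was largely set by the filter, so this count is no independent support. They summed to 102, 81.8 and 95.1 CPM in NUAK550 muscle and 55.4, 50.1 and 54.3 CPM in NUAK550 whole larvae, against 90.7, 96.1 and 98.1 CPM in lacZ muscle and 1553, 1181 and 1262 CPM in lacZ whole larvae. The lacZ whole libraries were thus far above every other library, and the median log2FC was 0.15 in NUAK550 and -6.39 in lacZ. The NUAK550 median rests mostly on genes with few counts in NUAK550 larvae. The RNA gene lncRNA:roX1 had 58.8, 65.1 and 60.1 CPM in NUAK550 muscle and 27.7, 25.2 and 22.9 CPM in NUAK550 whole larvae, against 484, 508 and 546 CPM in lacZ muscle and 185, 148 and 164 CPM in lacZ whole larvae. Midgut genes had no called interaction, with medians of -7.34 in NUAK550 and -6.06 in lacZ. The labels give no sex for either genotype, so the part of male RNA in the interaction cannot be told apart from the genotype.

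**Figure D5:**
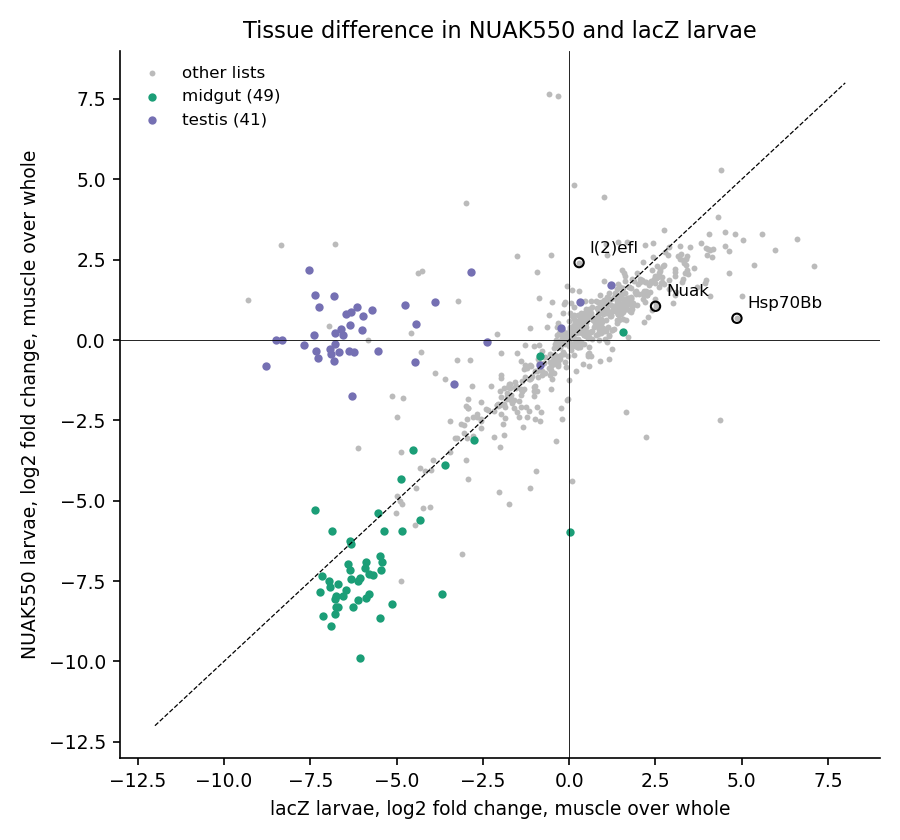
Log2 fold change of muscle over whole in NUAK550 larvae (vertical axis) against lacZ larvae (horizontal axis) for list members in the fit of 12 libraries, with the dashed line of equal values. Midgut genes (green) lie low in both genotypes, while testis genes (purple) have a median of 0.15 in NUAK550 and -6.39 in lacZ. Of the 41 testis genes, 26 passed the filter only with the lacZ libraries added.

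The tissue difference of muscle genes was also set against that in lacZ. The contractile lists together summed to 205095, 147285 and 201844 CPM in NUAK550 muscle and 40218, 34953 and 36529 CPM in NUAK550 whole larvae. In lacZ they summed to 78162, 107367 and 75662 CPM in muscle and 11361, 15121 and 7090 CPM in whole larvae. Summed levels in NUAK550 thus lay above those in lacZ in both preparations, and a smaller log2FC does not mean a lower level in muscle. The 32 contractile genes had a median log2FC of 2.20 in NUAK550 and 2.92 in lacZ, but only 3 had a called interaction, TpnC47D, tmod and Strn-Mlck, all lower (-3.004, -0.84 and -1.47). The calls of TpnC47D and tmod were lost without any 1 of the NUAK550 muscle libraries, among others (adjusted p = 0.092, 0.126 and 0.0975 for TpnC47D and 0.201, 0.167 and 0.145 for tmod). Of the 5 glutamate receptor subunits, 4 had a lower log2FC in NUAK550 than in lacZ, but the call of GluRIIE (-1.09 ± 0.32, SE; adjusted p = 0.0483) was lost in 10 of the 12 fits that left out a library, with an adjusted p of up to 0.166 (without NUAK550 muscle replicate 2). GluRIID had 79.6, 76.2 and 73.8 CPM in NUAK550 muscle and 17.97, 16.9 and 19.2 CPM in NUAK550 whole larvae, against 107, 128 and 130.1 CPM in lacZ muscle and 11.6, 13.6 and 10.4 CPM in lacZ whole larvae. Its log2FC was 2.09 in NUAK550 and 3.36 in lacZ, an interaction of -1.27 ± 0.18 (SE; adjusted p = 0.00092). RyR had 153, 61.1 and 115.5 CPM in NUAK550 muscle and 35.0, 26.9 and 65.2 CPM in NUAK550 whole larvae, against 298, 424 and 352 CPM in lacZ muscle and 9.17, 18.8 and 5.69 CPM in lacZ whole larvae (interaction -3.62 ± 0.67, SE; adjusted p = 0.00501).

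Nuak had 5057, 3975 and 5054 CPM in NUAK550 muscle and 2307, 2205 and 2291 CPM in NUAK550 whole larvae, against 446, 402 and 453 CPM in lacZ muscle and 55.0, 92.8 and 81.7 CPM in lacZ whole larvae. Both preparations of NUAK550 lay above both of lacZ, and the log2FC was 1.05 in NUAK550 and 2.503 in lacZ (interaction -1.45 ± 0.27, SE; adjusted p = 0.00566). For l(2)efl the log2FC was higher in NUAK550 than in lacZ, with 9679, 10552 and 10634 CPM in NUAK550 muscle and 2032, 1982 and 1798 CPM in NUAK550 whole larvae, against 475, 595 and 548 CPM in lacZ muscle and 508, 492 and 325 CPM in lacZ whole larvae. Its log2FC was 2.41 in NUAK550 and 0.29 in lacZ (interaction 2.12 ± 0.27, SE; adjusted p = 0.000592). The dystrophin complex genes Dyb and Dys had interactions of opposite sign, 1.24 ± 0.25 for Dyb (SE; adjusted p = 0.00771) and -1.16 ± 0.35 for Dys (SE; adjusted p = 0.0499), and the Dys call was lost in all but 2 of the 12 fits that left out a library, with an adjusted p of 0.248 without NUAK550 muscle replicate 2.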

How the data were processed

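The authors' deposited counts, whole numbers of reads per gene, were used as they stand. The submitters' processing notes name Trimmomatic 0.36, STAR 2.5.2b, featureCounts of Subread 1.5.2, DESeq2 and the build BDGP6, and the labels' protocols give 2.0 ug of total RNA per library. The sources used here give neither strand setting nor annotation release. The deposited normalized tables were not used.

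Groups came from the labels. Counts were tested with edgeR 4.0.16 (glmQLFit and glmQLFTest, filterByExpr, TMM) in R 4.3.3, with limma 3.58.1 and DESeq2 1.42.0 as alternatives, and p-values were adjusted over all genes tested (Benjamini-Hochberg, called below 0.05). The tissue fit had 6 libraries and 4 residual degrees of freedom, and the interaction fit 12 libraries and 8. The code was tested on simulated data in which a small part of the genes changed, as many up as down. That setting cannot check the scaling where many genes differ, as they do here. TPM were computed here from the counts and the deposited gene lengths. Counting intervals and floors cover counting error only.

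Of 17411 features, 17137 were named by identifier, 220 by exon overlap of at least 0.5 (Jaccard) and 54 not, the last with 0.0021% of the counts. The 36 lists hold 862 symbols, of which 10 did not match. Genes were named by rule: label checks, the 12 highest and 12 lowest log2FC among stable calls with at least 10 CPM, the 5 most abundant tested members of each list and any member of lists of 16 or fewer, the 8 highest and 8 lowest interactions, and the 10 most abundant by TPM. Genes outside it are said to have been picked after their values were seen. Members and lists were chosen with earlier results of these data known. No libraries were duplicates (lowest chi-square per degree of freedom 55.1 between muscle and 40.0 between whole libraries). Alternatives tried were other scalings, filters and tools, a 2-fold test, more libraries, a replicate block and leaving out each library.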

Additional observations from a re-analysis of the deposited data

Results flagged for a closer look

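The results in this section stand out because the interaction term called a difference between the muscle-over-whole log2FC of NUAK550 and of lacZ larvae (edgeR, adjusted p below 0.05, 3 libraries in each of 4 groups). Each value is the NUAK550 log2FC minus the lacZ log2FC, so a negative one means a lower log2FC in NUAK550. Of the 47 results, 24 kept the call in each of the 12 fits that left out a library and 23 lost it in at least 1, and 16 kept it with all 18 libraries in the fit. Values of genes with almost no counts in a group depend on the prior count of the fit and are no bound. No explanation was tested for any of them.

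Among genes that kept the call in all 12 fits, higher values were those of ATPsynbetaL 12.03, CG4375 9.58, tHMG2 9.36, SdhBL 8.67, CG30334 6.66, Hsc70-1 6.45, the testis genes fzo 4.95 and twe 2.31, the germline genes bgcn 3.92 and AGO3 1.67, Hsc70-2 3.17, l(2)efl 2.12, Dyb 1.24 and mib2 0.86. ATPsynbetaL had 1 count in all in the 3 lacZ muscle libraries and 874 in the 3 lacZ whole libraries. The testis list stood at 90.7, 96.1 and 98.1 CPM in lacZ muscle and 1553, 1181 and 1262 CPM in lacZ whole larvae. Genes counted almost only in lacZ whole larvae entered the fit through that group, which no fit left out as a whole. For them, keeping the call in all 12 fits is no added support. Lower values that kept the call were those of CG3588 -9.36, lectin-22C -5.29, CG8641 -4.42, Hsp70Bb -4.19, whose sequence is nearly shared with other Hsp70 copies, RyR -3.62, Strn-Mlck -1.47, Nuak -1.45, GluRIIA -1.38, GluRIIB -1.38 and GluRIID -1.27. RyR, Hsc70-1 and Hsc70-2 were taken up after their values were seen. Leaving out 1 library moved some of these values. ATPsynbetaL ran from 11.50 (without NUAK550 whole replicate 2) to 14.37 (without lacZ muscle replicate 2), CG4375 from 9.06 (without NUAK550 whole replicate 2) to 11.92 (without lacZ muscle replicate 1), tHMG2 from 8.69 (without NUAK550 whole replicate 3) to 11.89 (without NUAK550 whole replicate 1) and CG30334 from 6.22 (without lacZ whole replicate 1) to 7.26 (without lacZ muscle replicate 2). CG3588 ran from -11.61 (without lacZ whole replicate 3) to -8.78 (without lacZ whole replicate 1), lectin-22C from -5.66 (without NUAK550 whole replicate 2) to -4.64 (without lacZ muscle replicate 2), Hsp70Bb from -5.30 (without lacZ whole replicate 1) to -3.74 (without lacZ whole replicate 2) and RyR from -4.22 (without lacZ whole replicate 2) to -3.15 (without NUAK550 muscle replicate 2).

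Genes that lost the call follow, each with the number of the 12 fits in which it was lost and its value in the fit with the highest adjusted p. Of those with a higher value, CCY was at 11.32, CG12692 at 10.55, WDY at 9.79, lncRNA:CR32658 at 9.33, CG18266 at 8.96, CG2750 at 8.75 and bol at 0.86. CCY and WDY are Y-linked, and the 9 Y-linked genes together had 5 counts in NUAK550 muscle and 6 in NUAK550 whole larvae. The fits lost were for CCY 2 (8.45, adjusted p = 0.9999 without NUAK550 muscle replicate 2), CG12692 1 (9.91, adjusted p = 0.101 without NUAK550 muscle replicate 2), WDY 10 (9.55, adjusted p = 0.135 without NUAK550 muscle replicate 3) and lncRNA:CR32658 1 (7.92, adjusted p = 0.0555 without NUAK550 muscle replicate 1). For the others they were CG18266 1 (4.95, adjusted p = 0.997 without NUAK550 muscle replicate 2), CG2750 1 (7.99, adjusted p = 0.114 without NUAK550 muscle replicate 1) and bol 1 (0.80, adjusted p = 0.0503 without NUAK550 whole replicate 2). Over the 12 fits CG12692 ran from 9.91 (without NUAK550 muscle replicate 2) to 14.22 (without lacZ muscle replicate 1), lncRNA:CR32658 from 7.92 (without NUAK550 muscle replicate 1) to 10.97 (without NUAK550 whole replicate 1), CG18266 from 4.95 (without NUAK550 muscle replicate 2) to 11.49 (without NUAK550 whole replicate 1), CG2750 from 7.99 (without NUAK550 muscle replicate 1) to 10.47 (without NUAK550 whole replicate 2) and WDY from 9.26 (without lacZ whole replicate 3) to 10.55 (without NUAK550 muscle replicate 2).

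Of muscle, junction and matrix genes with a lower value that lost the call, TpnC47D was at -3.004, tmod -0.84, GluRIIE -1.09, Ndg -2.10, Dys -1.16 and nrv1 -0.87. The fits lost were TpnC47D 10 (-2.67, adjusted p = 0.126 without NUAK550 muscle replicate 2), tmod 8 (-0.57, adjusted p = 0.201 without NUAK550 muscle replicate 1) and GluRIIE 10 (-0.83, adjusted p = 0.166 without NUAK550 muscle replicate 2), and Ndg 11 (-1.75, adjusted p = 0.144 without NUAK550 muscle replicate 2), Dys 10 (-0.86, adjusted p = 0.248 without NUAK550 muscle replicate 2) and nrv1 5 (-0.67, adjusted p = 0.0731 without lacZ muscle replicate 3). TpnC47D ran from -3.53 (without lacZ whole replicate 1) to -2.41 (without lacZ muscle replicate 2). Most genes of these lists had no called interaction: 3 of 32 contractile, 4 of 16 postsynaptic, 0 of 15 integrin attachment, 1 of 14 basement membrane and 2 of 8 dystrophin complex genes had a lower value, and 1 of the last a higher one, beside 4.50% lower and 9.21% higher over all genes.

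The remaining genes with a lower value were CG33267 -8.53, CG10073 -7.21, LManVI -6.55, CG4962 -5.36, Oatp58Db -2.26, Mbs -0.92, Ogdh -0.86, Sxl -0.70, Npc1a -0.64 and SNF4Agamma -0.61. The fits lost were CG33267 1 (-7.93, adjusted p = 0.0862 without lacZ muscle replicate 1), CG10073 1 (-5.54, adjusted p = 0.161 without lacZ muscle replicate 1), LManVI 8 (-3.57, adjusted p = 0.319 without lacZ muscle replicate 1) and CG4962 4 (-4.84, adjusted p = 0.0845 without lacZ muscle replicate 1). They were Oatp58Db 8 (-2.01, adjusted p = 0.101 without lacZ muscle replicate 3), Mbs 9 (-0.63, adjusted p = 0.248 without NUAK550 muscle replicate 1) and Ogdh 11 (-0.63, adjusted p = 0.211 without lacZ muscle replicate 3) for the next. For the last they were Sxl 9 (-0.46, adjusted p = 0.307 without NUAK550 muscle replicate 1), Npc1a 8 (-0.43, adjusted p = 0.255 without lacZ muscle replicate 3) and SNF4Agamma 9 (-0.35, adjusted p = 0.333 without NUAK550 muscle replicate 2). CG33267 ran from -9.10 (without NUAK550 whole replicate 2) to -6.94 (without NUAK550 whole replicate 3), CG10073 from -7.70 (without NUAK550 whole replicate 1) to -5.54 (without lacZ muscle replicate 1), LManVI from -7.82 (without lacZ whole replicate 2) to -3.57 (without lacZ muscle replicate 1) and CG4962 from -7.31 (without NUAK550 muscle replicate 1) to -4.52 (without NUAK550 muscle replicate 2). Without NUAK550 muscle replicate 2 the value of Ogdh was -0.49.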

How the results depend on the processing

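Between muscle and whole larvae 5915 genes were called. A test against a 2-fold change called 1737, and the fits leaving out a library called 4684 to 5952. The interaction called 1672 genes, 2622 with DESeq2, 226 with all 18 libraries in the fit, and 1146 to 1723 when a library was left out. Scaling to library totals left the call and direction of 262 of 333 named genes as they were, while 29 lost the call and 30 gained one. It turned the sign of the other 12 (Cam -0.15, Stim -0.041, mRpS22 -0.13, mRpL39 -0.029, SNF4Agamma -0.14, Sxl -0.30, eEF1alpha1 -0.025, cpa -0.060, gbb -0.24, Stlk -0.029, alc -0.079 and flw -0.13). It also turned the median log2FC of 11 lists: postsynaptic junction -0.11, dystrophin complex -0.11, mitochondrial ribosomal protein -0.16, chaperone -0.35, NUAK and LKB1 kinase -0.18, trachea -0.0066, oenocyte -0.28, nephrocyte and heart -0.20, hemocyte -0.14, testis -0.29 and germline -0.37. The chaperone median was also negative with no filter (-0.12), and ran from -0.10 to 0.30 when a library was left out, below 0 without muscle replicate 2 or whole replicate 1. The germline median was negative with no filter (-0.42) and in the fit of 18 libraries (-0.15). The cause was not tested. With size factors in place of TMM, none of the 333 named genes changed its call or direction. A fit of 12 libraries, added after the data were seen, called 5612 genes between muscle and whole.

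Deviations from the group means correlated weakly between same-numbered muscle and whole libraries (0.166, 0.025 and 0.043 for replicates 1, 2 and 3). The first value was the highest of all muscle and whole pairs, while muscle replicate 2 correlated best with whole replicate 3 (0.117). With 3 libraries per group these correlations cannot decide if the numbers pair the libraries. The shared numbers come from the titles: the headers of the count files number the NUAK550 whole libraries 2, 3 and 5 and letter the muscle libraries. With the replicate block 5353 genes were called between muscle and whole and 1231 in the interaction. The 549 genes with a lower interaction were 147 to 693 when a library was left out. Every alternative planned was run. With 4 residual degrees of freedom among 6 libraries, small differences and genes with few counts were at the limit of what the depth could show.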

Other observations

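Genes of chromosome 4, the small chromosome of Drosophila that is packaged largely as heterochromatin, had a higher median log2FC than the other arms, a grouping taken up after its values were seen. Of 86 genes tested on it, 50 were higher in muscle and 16 lower, with a median log2FC of 0.39. The medians of the other arms were -0.02 for X, -0.04 for 2L, 0.00 for 2R, 0.03 for 3L and -0.04 for 3R. In the fit of 12 libraries the median on chromosome 4 was 0.37 in NUAK550 and 0.54 in lacZ. No test was made of this difference, and what the genes of chromosome 4 share besides their position was not examined.

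Of 317 noncoding RNA genes tested, 133 were higher in muscle and 32 lower, with a median log2FC of 0.67, against -0.03 for protein-coding genes. CG30334 (2R 12440633 to 12441320 of build BDGP6, minus strand) lies within the span of Dyb (2R 12437345 to 12452916, plus strand). Both were higher in muscle, with log2FC of 4.17 and 1.57, and both had a positive interaction. Their counted exons do not overlap.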
